A study of Mus musculus with 9 samples.

Results

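This account concerns the heat shock proteins and folding chaperones of mouse dendritic cells (DC), followed across butyrate, trichostatin A (TSA) and no treatment. The members are the genes whose platform annotation symbol begins with Hspa, Hspb, Hspd, Hspe, Hsph, Hsp90, Dnaja, Dnajb or Dnajc, together with the subunits of the cytosolic chaperonin (Tcp1 and the Cct genes), Hsf2, Stip1, St13, Ahsa1, Cdc37 and the Bag genes. Of the 12393 genes with a probe set of a single symbol, 81 met this rule, and each was represented by its brightest probe set. The rule also names Hsf1 and Hsp90ab1, which are not analysed here. By its letters alone it takes in Hspbp1, a binding partner of Hsp70, and Hspb11, an intraflagellar transport protein.

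DC were taken from spleens of mice 6 to 8 weeks old that carried B16 melanoma tumours expressing Flt3L, the cytokine that expands DC, and were enriched with magnetic beads against CD11c. The 9 one-colour Affymetrix arrays fell into 3 groups of 3: DC treated with butyrate, a fatty acid that bacteria of the gut release, DC treated with TSA, a hydroxamic acid, and untreated DC. Both compounds inhibit histone deacetylases (HDACs), and the series asks what this inhibition does to gene expression in Flt3L-elicited DC. The labels give no mouse strain, dose or duration of treatment, and do not say whether replicates came from separate mice or cultures, so p-values measure only the spread between these samples.

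Chaperones bind unfolded proteins and let them fold, refold or be handed on for degradation. Hsp70 proteins (Hspa genes) do so in cycles of ATP hydrolysis that are started by J-domain proteins (Dnaj genes) and reset by nucleotide exchange factors such as the Hsp110 and Bag proteins. Clients can then pass to Hsp90, which works with co-chaperones, or to ring-shaped chaperonins, of which CCT (TRiC) folds actin and tubulin in the cytosol and Hspd1 with Hspe1 folds proteins in mitochondria. Heat shock factors raise many of these genes under stress by binding inverted repeats of GAA in their promoters, whereas misfolded proteins in the endoplasmic reticulum (ER) raise another set through a different element.

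Levels are RMA values on the log2 scale, so a difference of 1 is a 2-fold change. Differences were fitted with limma over all 9 arrays. A gene was called higher or lower at a Benjamini-Hochberg adjusted p under 0.05 over all 12393 genes, and each ± after a log2 difference is limma's standard error with 3 arrays per group. Of the 81 members, 59 had a mean level above that of the median gene. Another 6 lay in the range below the 25th percentile of an array's probe sets (Dnajb13, Dnajb3, Dnajb7, Hspa1l, Hspb3 and Hspb7), where RMA values lie near a floor and differences understate changes in RNA. Because the arrays are of bulk samples, fewer cells of a type and less RNA per cell cannot be told apart.

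Some measures of the whole arrays moved with the groups. The hybridization spike-ins, RNAs added in equal amounts before hybridization and read by 7 probe sets, averaged 10.78 ± 0.063 on the butyrate arrays (SD, n = 3), 10.38 ± 0.03 on the TSA arrays and 10.37 ± 0.075 on the untreated arrays. The difference of 0.415 between butyrate and untreated arrays had an exact two-sided permutation p = 0.1, the smallest that 3 against 3 arrays allow. Shifting the arrays until these spike-ins are level lowers every butyrate difference from untreated by that amount and moves the median of all genes to −0.33, against 0.09 on the deposited scale. The shift with poly-A spike-ins was 0.355, and the median moved to −0.27. Butyrate rises are therefore given below also on the hybridization spike-in scale. The distance of a gene from the median of all genes is the same on every one of these scales. The 3′ minus 5′ difference of the beta-actin probe sets was 0.682 in butyrate, 0.641 in TSA and 0.432 in untreated samples (exact p = 0.1 for each treatment). That of the Gapdh probe sets differed less, at 0.224 in butyrate, 0.192 in TSA and 0.159 in untreated samples. Its exact permutation p was 0.1 for butyrate and 0.2 for TSA. All 8 DC markers were measured above that percentile, and their summed level lay between 15.73 and 15.76 in butyrate, 15.73 and 15.77 in TSA and 15.75 and 15.78 in untreated samples, a sum carried by the bright Cd74, H2-Ab1 and Cd24a. Of the 8 DC markers, 2 were called higher and 4 lower with butyrate, and 1 higher and 5 lower with TSA, among them the CD11c gene Itgax (−0.74 with butyrate and −0.99 with TSA) and Flt3, the receptor of Flt3L (−0.63 with butyrate and −0.60 with TSA). The summed level of 7 macrophage and monocyte markers was 12.57 to 12.65 in butyrate, 12.56 to 12.7 in TSA and 13.22 to 13.29 in untreated samples, and all 7 were called lower with both treatments. The summed level of 7 neutrophil markers was 15.18 to 15.2 in butyrate, 14.9 to 14.97 in TSA and 15.23 to 15.27 in untreated samples. With butyrate 4 of them were called lower and 2 higher, and with TSA 5 lower and 0 higher. For 7 NK cell markers the summed level was 10.15 to 10.23 in butyrate, 10.8 to 11.02 in TSA and 11.6 to 11.69 in untreated samples. Of these, 2 were called lower and 1 higher with butyrate, and 3 lower and 0 higher with TSA. With each treatment 4 NK cell markers were not called, and the median difference of the 7 was −0.07. The summed level of 5 erythroid markers was 12.4 to 12.45 in butyrate, 12.11 to 12.16 in TSA and 12.75 to 12.87 in untreated samples. With butyrate 3 of them were called lower and 1 higher, and with TSA 4 lower and 0 higher. For 7 B cell markers the summed level was 10.15 to 10.32 in butyrate, 9.92 to 10.02 in TSA and 10.45 to 10.53 in untreated samples. Of these, 2 were called lower with butyrate and 5 with TSA, and 0 higher with either. The sum of 6 T cell markers ran from 9.29 to 9.31 in butyrate, 9.07 to 9.21 in TSA and 9.32 to 9.46 in untreated samples. With butyrate 1 of them was called lower and 1 higher, and with TSA 2 lower and 0 higher. The sum of 7 B16 melanoma markers ran from 8.92 to 9.01 in butyrate, at 8.91 in TSA and from 9.21 to 9.37 in untreated samples. Of these, 1 was called lower and 3 higher with butyrate, and 2 lower and 1 higher with TSA. The part of these differences in the chaperone results was not tested.

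With TSA, chaperone genes were called higher more often than lower. Of the 81 members, 41 rose, 9 fell and 31 were not called, while 26.3% of all genes rose, 21% fell and 47.3% were called in either direction. The members' median difference was 0.23, against 0.03 for all genes. Members were mostly brighter than the median gene, so genes of like level are a closer background. Fitted on genes above the median level alone, 37 of 59 members rose and 8 fell, beside 2661 and 2046 of 6196 genes. The medians were then 0.30 for members and 0.06 for all these genes. The largest rises were those of Hspa2, Dnajc12, Hspa1b and Hspe1, and Hspa2 and Dnajc12 alone passed 2-fold (2.14% of all genes rose by at least that much). The falls were led by Dnajb2, Dnajc7 and Bag3, and no member fell 2-fold (3.28% of all genes did). The number of falls was 5 without untreated replicate 2, and the poly-A spike-in scale left 17 rises and 3 falls. Those falls were Bag3, Dnajb2 and Dnajc7, and the hybridization spike-in scale left the same ones and Dnajb13.

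With butyrate, 23 members rose, 17 fell and 41 were not called, against 33.6%, 24.8% and, in either direction, 58.4% of all genes. The members' median was 0.02, and that of all genes 0.09. Fitted on genes above the median level alone, 22 of 59 members rose and 19 fell, beside 2472 and 2513 of 6196 genes. On the hybridization spike-in scale only Dnajc12, Hspa1b and Hspa2 were still called higher, 60 members were called lower, and the members' median of −0.39 stood beside −0.33 for all genes. Hspa2 was the single member past 2-fold (2.74% of all genes rose that far), and no member fell 2-fold (4.6% of all genes). The 3 untreated arrays serve both comparisons, so the calls stand side by side without a test of their overlap: 20 members were called higher with both, 6 lower with both, and 4 (Cct3, Hspa9, Hsph1 and St13) were higher with TSA and lower with butyrate.

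Set directly against TSA, butyrate gave lower chaperone levels: 40 members were lower, 4 higher and 37 not called, whereas 20% of all genes were lower, 15.9% higher and 35.9% called in either direction. The members' median difference was −0.16, against 0.03 for all genes, and no member was 2-fold higher (0.0888% of all genes were). Among genes above the median level, fitted alone, 38 of 59 members were lower and 3 higher, beside 2405 and 1284 of 6196 genes. The medians were then −0.25 for members and −0.06 for all these genes. With doses and durations not given, a difference between the compounds and a difference in their strength cannot be told apart. The plot of all members by family shows the 3 comparisons side by side.

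**Figure D1:**
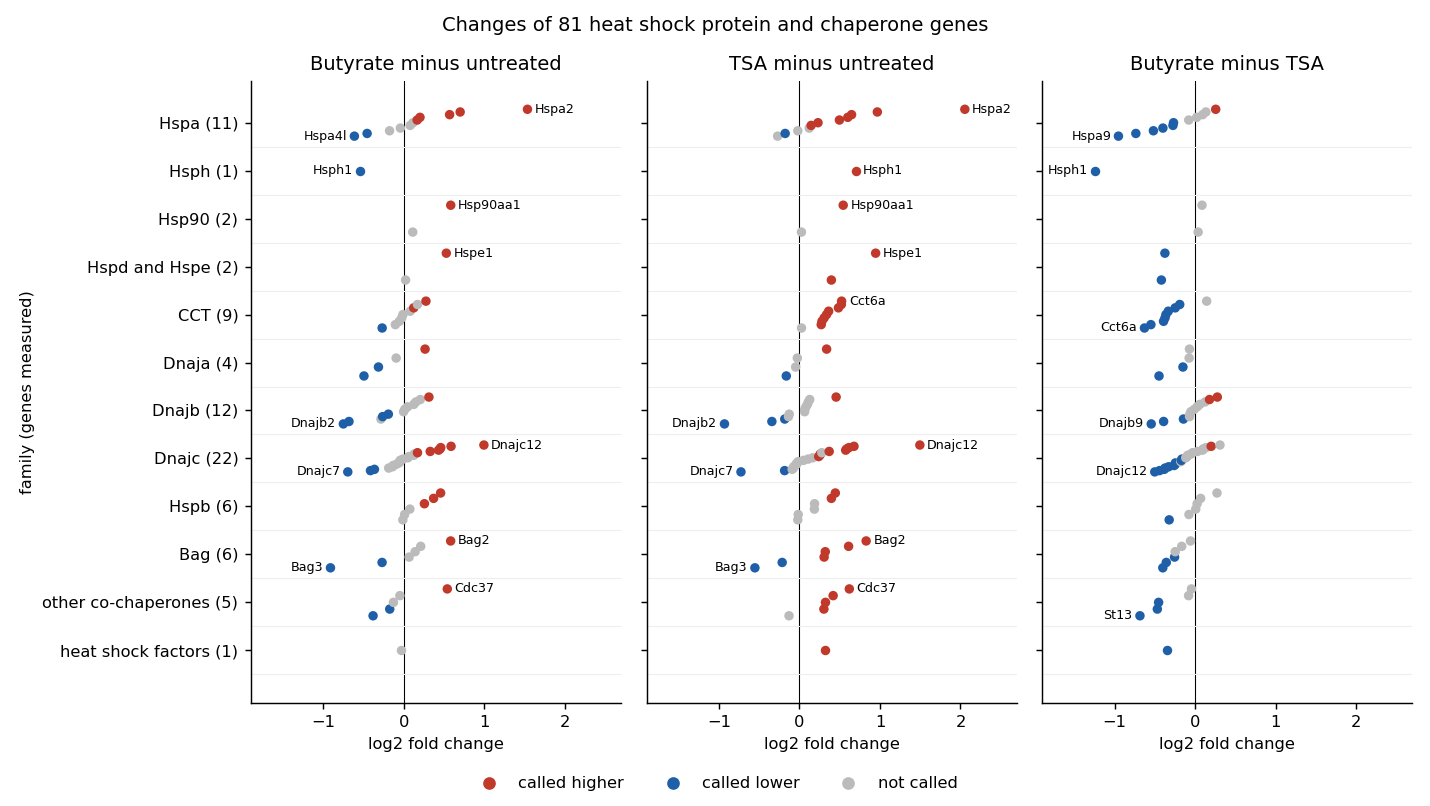
Log2 fold change (x axis) of each of the 81 genes by family (y axis, with the number of genes measured) for butyrate minus untreated, TSA minus untreated and butyrate minus TSA; each point is 1 gene, red where called higher, blue where called lower and grey where not called. With TSA 41 points are red and 9 blue, with butyrate 23 are red and 17 blue (3 and 60 on the hybridization spike-in scale), and in butyrate minus TSA 4 are red and 40 blue.

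Hspa2, an Hsp70 best known from male germ cells, where it is needed for spermatogenesis in mice, showed the largest change of any member. Its log2 level was 7.55, 7.72 and 7.78 in butyrate samples, 8.19, 8.18 and 8.23 in TSA samples and 6.11, 6.32 and 6.01 in untreated samples. Every treated array lay above every untreated one, and the TSA arrays above the butyrate arrays. The difference from untreated was 1.53 ± 0.084 with butyrate (adjusted p = 1.2e-07, 2.9-fold) and 2.05 ± 0.084 with TSA (adjusted p = 3.07e-08, 4.15-fold). The butyrate rise was still 1.12 on the hybridization spike-in scale. Its promoter is shown because no member rose further. In the 200 bases before its start site (chr12:76404170-76404369, plus strand, GRCm38.p6, RefSeq), the capitals mark GC boxes (GGGCGG, either strand) and a CCAAT box (CCAAT, either strand).
Hspa2: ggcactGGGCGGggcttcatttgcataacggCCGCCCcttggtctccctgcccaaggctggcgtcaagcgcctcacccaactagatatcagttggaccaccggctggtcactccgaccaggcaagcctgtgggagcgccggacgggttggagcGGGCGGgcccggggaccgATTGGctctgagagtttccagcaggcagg
Both motifs are common: a GC box occurs in 35.7% and a CCAAT box in 37.4% of 32851 RefSeq mouse promoters of 300 bases, and in 55.4% and 37.1% of the promoters of genes on the array, and in 75% and 41.7% of the 84 promoters found for 67 members. A match of letters is a description and not evidence of a bound factor.

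The stress-inducible cytosolic Hsp70 genes rose with TSA. Hspa1b stood at 9.90, 9.97 and 9.92 in butyrate samples, 10.19, 10.23 and 10.18 in TSA samples and 9.16, 9.31 and 9.23 in untreated samples, with no overlap between the 3 groups. It rose by 0.97 ± 0.051 with TSA (adjusted p = 1.46e-07) and by 0.70 ± 0.051 with butyrate (adjusted p = 1.03e-06; still called, at 0.28, on the hybridization spike-in scale), and its other 2 probe sets were called in the same directions. Hspa1a rose by 0.60 ± 0.068 with TSA. With butyrate Hspa1a was 0.20 ± 0.068 higher (adjusted p = 0.0275), a value that turns to −0.22 on the hybridization spike-in scale. That call was lost without butyrate replicate 2, butyrate replicate 3, untreated replicate 1 or untreated replicate 3 (adjusted p 0.0592 to 0.0816, log2 0.173 to 0.201). Hspa1a and Hspa1b are near-identical in sequence, so how much of the signal belongs to each is uncertain.

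Other cytosolic Hsp70 genes changed by different amounts. Hspa8, the abundant housekeeping Hsc70, was 0.17 ± 0.043 higher with butyrate (−0.25 on the hybridization spike-in scale) and 0.15 ± 0.043 higher with TSA (adjusted p = 0.0167). The TSA call was lost without TSA replicate 2 or TSA replicate 3 (adjusted p 0.0537 to 0.0636), and the dimmest of its 4 probe sets was called lower with TSA. Hspa14, which pairs with the J protein Dnajc2 on ribosomes, rose by 0.57 ± 0.060 with butyrate (0.15 on the hybridization spike-in scale) and by 0.65 ± 0.060 with TSA. Hspa1l and Hspa12b, both dim, were not called in any comparison. In all, 7 of 11 Hspa genes rose and 1 fell with TSA (63.6% and 9.09%, against 26.3% and 21% of all genes). With butyrate 5 rose and 2 fell (45.5% and 18.2%, against 33.6% and 24.8% of all genes). On the hybridization spike-in scale 2 Hspa genes rose and 8 fell with butyrate, beside 932 and 8417 of all 12393 genes.

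The Hsp110 proteins, large relatives of Hsp70 that reset its cycle, differed between the treatments. Hsph1 (Hsp105), which is also heat-inducible, had levels of 9.28, 9.23 and 9.29 in butyrate samples, 10.57, 10.46 and 10.49 in TSA samples and 9.82, 9.78 and 9.82 in untreated samples. The 3 groups did not overlap, with the butyrate arrays below and the TSA arrays above the untreated arrays. Hsph1 fell by 0.54 on the log2 scale with butyrate (SE 0.047, adjusted p = 3.83e-06) and rose by 0.70 ± 0.047 with TSA (adjusted p = 7.5e-07). Between the treatments the difference was −1.24 ± 0.047 (adjusted p = 2.28e-06), so that Hsph1 was 2.36-fold lower with butyrate, the largest such fall among the members and the only one past 2-fold (0.29% of all genes). Its second probe set gave −0.79 with butyrate and 0.58 with TSA, called both times.

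Hspa4l, another Hsp110, fell with butyrate alone: its levels were 7.40, 7.61 and 7.71 in butyrate samples, 8.29, 8.27 and 8.38 in TSA samples and 8.14, 8.26 and 8.16 in untreated samples. It was 0.61 lower with butyrate (−0.61 ± 0.077, adjusted p = 5.93e-05) and not called with TSA (0.12 ± 0.077, adjusted p = 0.24), and the direct difference was −0.74 ± 0.077 (adjusted p = 9.11e-05). Hspa4 rose with TSA by 0.23 ± 0.042. With butyrate its brightest probe set was not called (−0.04 ± 0.042), but its 2 dimmer probe sets were called higher by 0.46 and 0.29, so the direction with butyrate depends on the probe set.

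The promoter of Hsph1 was 1 of those of 4 members with a full heat shock element, searched for as GAANNTTCNNGAA on both strands. The element was found in 6 of the 84 member promoters (7.14%), those of Dnajb6, Hspd1, Hspe1 and Hsph1, against 0.603% of all 32851 promoters and 0.494% of the 12559 promoters of genes on the array. By gene it was found in 4 of the 67 members with a promoter. Dnajb6 and Hsph1 each count more than once, through overlapping promoters of different start sites that hold the same element. These elements are printed in capitals because their genes include some of the clearest TSA rises, from RefSeq promoters on GRCm38.p6. The Hsph1 window covers bases 8 to 37 after its start site (chr5:149636279-149636308, minus strand), and the Dnajb6 window the 120 bases before its start (chr5:29735778-29735897, plus strand).
Hsph1: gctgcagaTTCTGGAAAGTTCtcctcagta
Dnajb6: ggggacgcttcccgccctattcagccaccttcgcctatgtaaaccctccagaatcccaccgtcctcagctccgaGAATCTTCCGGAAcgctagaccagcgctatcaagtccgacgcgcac
All 4 of these genes were called higher with TSA, as were 26.3% of all genes and 41 of the 81 members. Hspd1 and Hspe1 share their elements and are not separate cases, and for Dnajb6 the call is that of the brightest probe set, with 2 of 4 called lower. With butyrate Hspe1 and Dnajb6 were called higher (0.11 and −0.10 on the hybridization spike-in scale), Hsph1 was called lower and Hspd1 was not called.

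**Figure D2:**
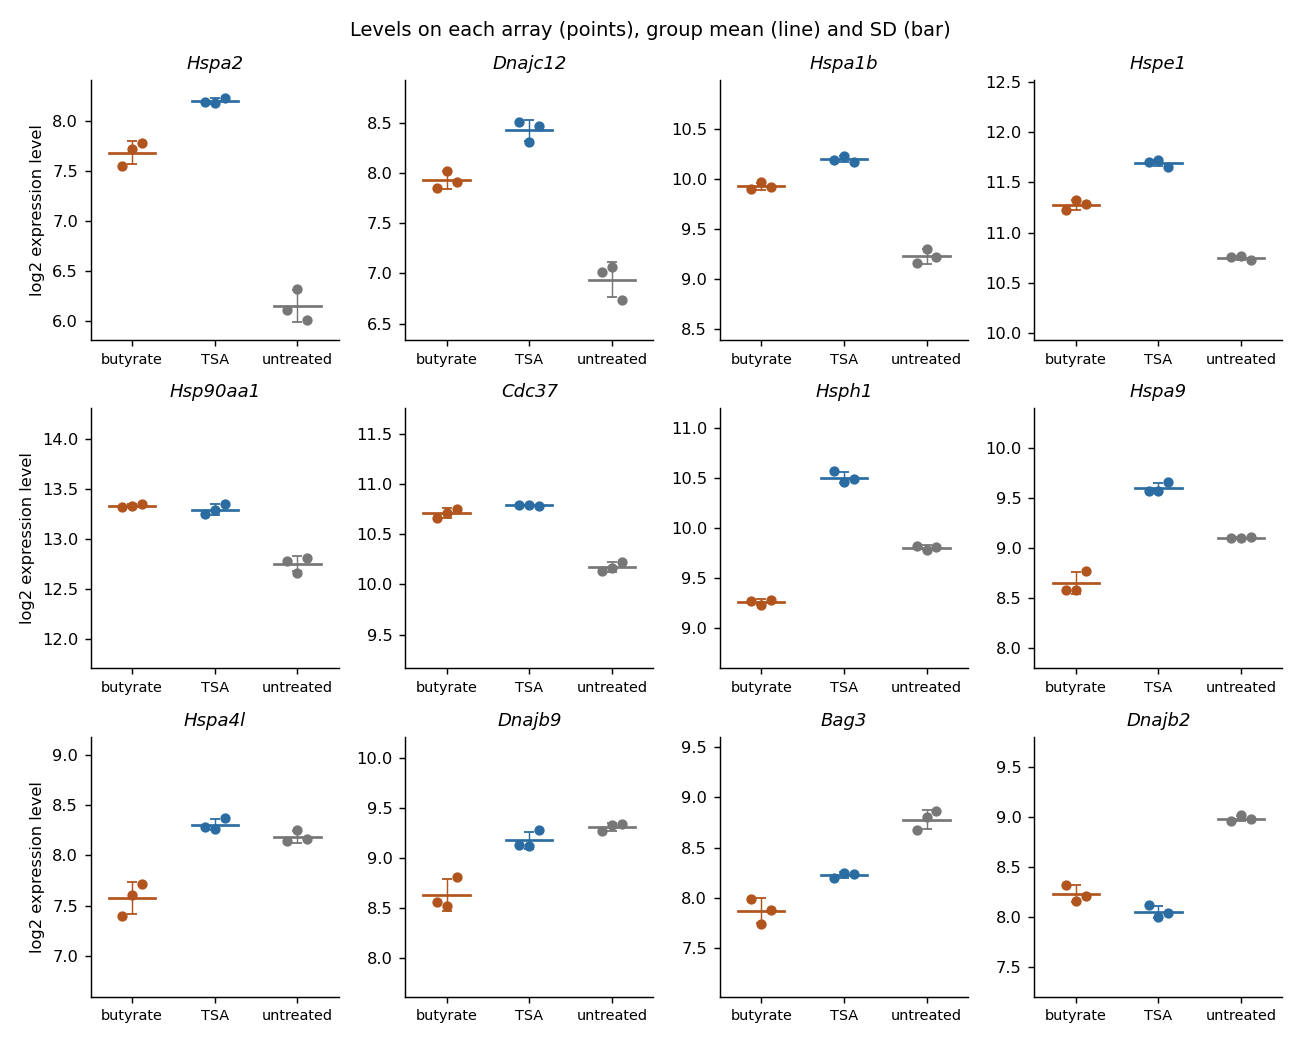
Log2 expression level (y axis) of 12 genes on each array for butyrate, TSA and untreated samples (3 points each; line, mean; bar, SD). Hspa2, Dnajc12, Hspa1b, Hspe1, Hsp90aa1 and Cdc37 are above the untreated level in both treatments (for butyrate only Hspa2, Dnajc12 and Hspa1b are called so on the hybridization spike-in scale), Hsph1 and Hspa9 lie above it with TSA and below it with butyrate, and Bag3 and Dnajb2 lie below it in both.

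Among mitochondrial chaperones the chaperonin genes rose with TSA. Hspe1, the lid of the mitochondrial chaperonin, measured 11.22, 11.32 and 11.28 in butyrate samples, 11.70, 11.72 and 11.66 in TSA samples and 10.76, 10.76 and 10.73 in untreated samples. The groups did not overlap, and both probe sets were called alike. It rose by 0.53 ± 0.047 with butyrate (adjusted p = 4.09e-06, 0.11 and not called on the hybridization spike-in scale) and by 0.95 ± 0.047 with TSA (adjusted p = 8.96e-08). Hspd1, the barrel of the same chaperonin, rose by 0.40 ± 0.050 with TSA (adjusted p = 7.01e-05). With butyrate Hspd1 was not called (0.02 ± 0.050, adjusted p = 0.743; −0.39 and called lower on the hybridization spike-in scale).

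These genes lie head to head on chromosome 1, with a pair of annotated start sites 216 bases apart, and their 300-base promoter windows share 285 bases. The stretch between the start sites is shown because the same elements are the match for both genes: the capitals hold a pair of overlapping heat shock elements in the 220 bases before the Hspe1 start (chr1:55087928-55088147, plus strand, GRCm38.p6, RefSeq).
Hspe1: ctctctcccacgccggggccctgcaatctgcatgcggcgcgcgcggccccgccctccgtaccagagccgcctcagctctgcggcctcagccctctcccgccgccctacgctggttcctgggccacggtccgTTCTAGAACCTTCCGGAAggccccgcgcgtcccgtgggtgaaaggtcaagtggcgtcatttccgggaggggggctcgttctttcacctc
The direct difference between butyrate and TSA was −0.42 ± 0.047 for Hspe1 (adjusted p = 0.000127) and −0.38 ± 0.050 for Hspd1 (adjusted p = 0.00036).

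Hspa9 (mortalin), the mitochondrial Hsp70 that pulls in imported proteins, moved in opposite directions. Its levels were 8.58, 8.58 and 8.77 in butyrate samples, 9.57, 9.57 and 9.66 in TSA samples and 9.09, 9.10 and 9.11 in untreated samples, with no overlap between groups. It was lower with butyrate (−0.46 ± 0.060, adjusted p = 8.71e-05) and higher with TSA (0.50 ± 0.060, adjusted p = 5.43e-05), and the direct difference of −0.95 ± 0.060 was the second largest among members. Its second probe set, also bright, gave −0.50 with butyrate and 0.46 with TSA, while 2 dim probe sets were not called. The J proteins of mitochondria were mixed. Dnaja3 (Tid1) rose by 0.26 ± 0.075 with butyrate (−0.15 on the hybridization spike-in scale) and by 0.34 ± 0.075 with TSA. Dnajc15, of the inner membrane, rose by 0.33 ± 0.048 with butyrate (−0.09 on that scale) and by 0.59 ± 0.048 with TSA. Dnajc28 rose by 0.46 ± 0.070 with butyrate (0.04 on that scale) and by 0.57 ± 0.070 with TSA. Dnajc11 and Dnajc30 were lower with butyrate (−0.42 ± 0.085 and −0.37 ± 0.065) and not called with TSA. Across 9 measured mitochondrial members 6 rose (66.7%, against 26.3% of all genes) and 0 fell (21% of all genes) with TSA. The other 3 were not called by limma (lowest adjusted p of these 0.434, so none passed an unadjusted 0.05 either). With butyrate 4 rose and 3 fell (44.4% and 33.3%, against 33.6% and 24.8% of all genes).

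The cytosolic chaperonin CCT rose nearly as a whole with TSA. Of 9 genes, 8 were called higher (88.9%, against 26.3% of all genes) and 0 lower (21% of all genes). Only Cct6b, a form best known from testis and dim here, was not called (0.03 ± 0.081). The 8 ring subunits other than Cct6b lay between 0.27 (Cct4) and 0.52 (Cct6a) with a median of 0.35. Cct2, for example, measured 11.66, 11.71 and 11.69 in butyrate samples, 11.93, 11.93 and 11.95 in TSA samples and 11.36, 11.41 and 11.47 in untreated samples. On the poly-A spike-in scale 2 of the 8 rises, those of Cct2 and Cct6a, were called.

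With butyrate the same subunits stayed near the untreated level, from −0.27 to 0.27 with a median of −0.02. Of the 9 CCT genes 22.2% were called higher and 11.1% lower, against 33.6% and 24.8% of all genes. Cct2 was called higher (0.27 ± 0.047, adjusted p = 0.000563; at −0.14 on the hybridization spike-in scale), Cct7 was called higher (0.12 ± 0.045, adjusted p = 0.0404; −0.29 on that scale) and Cct3 lower (−0.27 ± 0.047, adjusted p = 0.000623). The call of Cct7 was lost when any 1 of 7 arrays was left out, all but butyrate replicate 2 and TSA replicate 1 (adjusted p 0.0559 to 0.12, log2 0.101 to 0.13). On the hybridization spike-in scale 8 of 9 CCT genes were called lower with butyrate, as were 8417 of all 12393 genes. The family median on either scale lay 0.097 below the median of all genes.

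Directly against TSA, butyrate gave lower levels of all 8 ring subunits, between −0.63 ± 0.057 (Cct6a, adjusted p = 4.13e-05) and −0.19 ± 0.046 (Cct4, adjusted p = 0.0099), with a median of −0.37. In this comparison 88.9% of the CCT genes were called lower, against 20% of all genes. Cct6a stood at 10.86, 10.91 and 10.81 in butyrate samples, 11.41, 11.50 and 11.55 in TSA samples and 10.92, 10.93 and 11.04 in untreated samples, so that the butyrate arrays lay just under the untreated ones. The TSA arrays lay well above both. Tcp1 differed by −0.39 ± 0.044, Cct8 by −0.37 ± 0.048, Cct7 by −0.36 ± 0.045, Cct5 by −0.33 ± 0.043, Cct3 by −0.55 ± 0.047 and Cct2 by −0.25 ± 0.047. The plot of the subunits shows all 8 above 0 with TSA and on both sides of 0 with butyrate. Cct3 had 6 probe sets, of which 5 were called lower with butyrate and 3 higher with TSA.

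**Figure D3:**
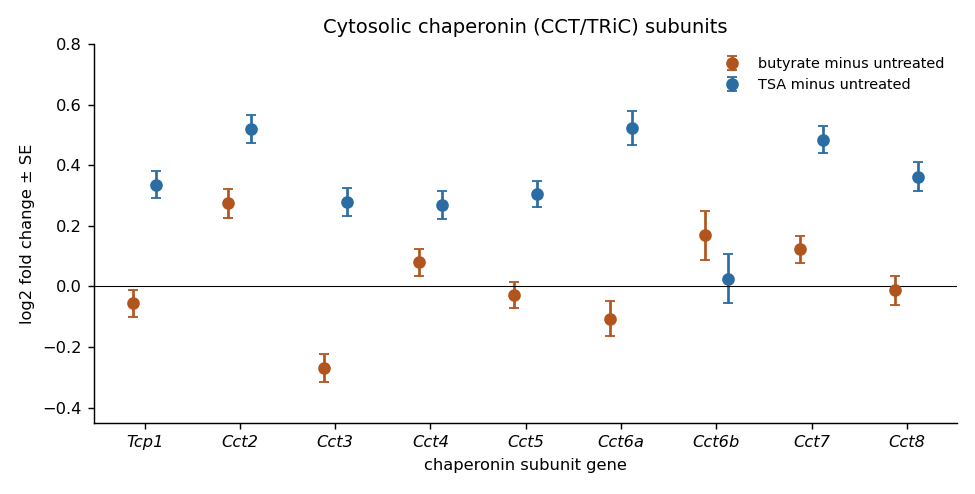
Log2 fold change ± SE (y axis) of the 9 CCT genes (x axis) for butyrate minus untreated and TSA minus untreated, 3 arrays per group. The TSA points of the 8 subunits other than Cct6b lie between 0.27 and 0.52, and their butyrate points between −0.27 and 0.27 (8 of the 9 genes are called lower with butyrate on the hybridization spike-in scale).

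The cytosolic Hsp90 gene was called higher in both treatments on the deposited scale. Hsp90aa1, the inducible Hsp90, measured 13.31, 13.33 and 13.35 in butyrate samples, 13.24, 13.28 and 13.35 in TSA samples and 12.78, 12.66 and 12.80 in untreated samples. The treated arrays overlapped each other and lay above all untreated arrays. It rose by 0.58 ± 0.053 with butyrate (adjusted p = 5.13e-06; 0.17 and not called on the hybridization spike-in scale) and by 0.54 ± 0.053 with TSA (adjusted p = 1.05e-05), with all 3 probe sets called higher in both. The direct difference was 0.04 ± 0.053 and was not called (adjusted p = 0.609; −0.36 and called lower on the hybridization spike-in scale). Cdc37, which brings protein kinases to Hsp90, stood at 10.66, 10.72 and 10.76 in butyrate samples, 10.80, 10.80 and 10.79 in TSA samples and 10.13, 10.16 and 10.23 in untreated samples. It rose by 0.54 ± 0.048 with butyrate (0.12 on the hybridization spike-in scale) and by 0.62 ± 0.048 with TSA, also without a called direct difference.

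Of the other co-chaperones of Hsp70 or Hsp90, Stip1, Ahsa1 and St13 differed between the treatments. Stip1 (Hop), which holds both chaperones at once, rose by 0.42 ± 0.060 with TSA (adjusted p = 0.000172) and was not called with butyrate (−0.05 ± 0.060). Ahsa1, which stimulates the Hsp90 ATPase, rose by 0.32 ± 0.059 with TSA and was not called with butyrate (−0.13 ± 0.059, adjusted p = 0.0831). St13 (Hip), which steadies Hsp70 on its client, stood at 9.68, 9.66 and 9.77 in butyrate samples, 10.39, 10.38 and 10.39 in TSA samples and 10.11, 10.09 and 10.05 in untreated samples. It was lower with butyrate (−0.38 ± 0.048, adjusted p = 5.75e-05) and higher with TSA (0.30 ± 0.048, adjusted p = 0.000359). A second, much dimmer St13 probe set was not called in either. The direct differences were −0.69 ± 0.048 for St13, −0.47 ± 0.060 for Stip1 and −0.45 ± 0.059 for Ahsa1. Hspbp1, an exchange factor of Hsp70, was called lower with butyrate (−0.18 ± 0.054, adjusted p = 0.0179) and not with TSA (−0.13 ± 0.054, adjusted p = 0.0742), and the direct difference was not called (−0.05 ± 0.054). The butyrate call was lost without butyrate replicate 2 or untreated replicate 3 (adjusted p 0.0529 to 0.0677).

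The J-domain proteins, which choose the clients of Hsp70, did not move together. Of 38 genes, 11 rose and 6 fell with TSA, and 9 rose and 9 fell with butyrate (1 and 29 on the hybridization spike-in scale). These shares, 28.9% and 15.8% with TSA and 23.7% each with butyrate, stood beside 26.3% and 21% of all genes with TSA and 33.6% and 24.8% with butyrate. Dnajc12, whose human protein binds the aromatic amino acid hydroxylases, rose most: its levels were 7.85, 8.03 and 7.91 in butyrate samples, 8.51, 8.31 and 8.47 in TSA samples and 7.01, 7.06 and 6.74 in untreated samples. The groups did not overlap. The rise was 0.99 ± 0.092 with butyrate (adjusted p = 5.82e-06; still called, at 0.58, on the hybridization spike-in scale) and 1.49 ± 0.092 with TSA (adjusted p = 3.81e-07, 2.82-fold). Dnajc9, a co-chaperone of histones, rose by 0.43 ± 0.069 with butyrate (0.02 on that scale) and by 0.68 ± 0.069 with TSA. Dnajc8, which takes part in splicing, was higher by 0.17 ± 0.047 with butyrate (−0.25 and called lower on that scale) and by 0.26 ± 0.047 with TSA.

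The major cytosolic partners of Hsp70 did not follow the inducible Hsp70 genes. Dnaja1 measured 10.60, 10.65 and 10.63 in butyrate samples, 11.13, 11.05 and 11.05 in TSA samples and 11.13, 11.12 and 11.12 in untreated samples. It was lower with butyrate (−0.50 ± 0.045, adjusted p = 5.18e-06) and not called with TSA (−0.05 ± 0.045; its second probe set was called higher, by 0.16). Dnajb1, an HSF1 target in many cells, was not called in either (0.00 ± 0.046 with butyrate and 0.07 ± 0.046 with TSA), although its second probe set was called lower in both, by −0.28 with butyrate and −0.16 with TSA. Dnajb6, a suppressor of protein aggregation, was called higher by its brightest probe set with butyrate (0.31 ± 0.046) and TSA (0.46 ± 0.046), while the dimmest of its 4 was called lower in both (−0.55 with butyrate and −0.23 with TSA). The second brightest was also called lower with TSA (−0.15), so that the 4 probe sets split evenly there. Which transcripts these probe sets detect was not tested.

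Some J proteins fell with both treatments. Dnajb2, which is rich in neurons and carries clients to the proteasome, stood at 8.32, 8.16 and 8.21 in butyrate samples, 8.12, 8.00 and 8.04 in TSA samples and 8.96, 9.02 and 8.98 in untreated samples. All treated arrays lay below all untreated ones. It was lower with butyrate (−0.75 ± 0.057, adjusted p = 1.25e-06) and with TSA (−0.93 ± 0.057, adjusted p = 3.53e-07). Dnajc7, which binds both Hsp70 and Hsp90, was lower by −0.70 ± 0.134 with butyrate (adjusted p = 0.00119) and −0.73 ± 0.134 with TSA (adjusted p = 0.001). Dnaja2 and Dnajb12 were also called lower with both, by 0.16 to 0.32 in size for their brightest probe sets. The second Dnajb12 probe set, which is dimmer, was called lower by more, −0.67 with TSA and −0.71 with butyrate. The second Dnaja2 probe set was called lower with butyrate (−0.24) and not called with TSA (−0.11). For the brightest probe sets, the TSA call of Dnaja2 was lost without TSA replicate 2 or untreated replicate 2. That of Dnajb12 was lost without TSA replicate 1, TSA replicate 3 or untreated replicate 2 (adjusted p 0.0605 to 0.0996 over both genes). With butyrate the Dnajb12 call was lost without butyrate replicate 1, butyrate replicate 3 or untreated replicate 2 (adjusted p 0.0523 to 0.0672). Dnajb13 and Dnajc17 were called lower with TSA (−0.34 ± 0.117 and −0.19 ± 0.061) and not with butyrate (−0.28 ± 0.117 and −0.09 ± 0.061), with no direct difference called, and both TSA calls were lost without single arrays: for Dnajb13 TSA replicate 1, TSA replicate 2, untreated replicate 1 or untreated replicate 3, and for Dnajc17 TSA replicate 3, untreated replicate 1 or untreated replicate 2 (adjusted p 0.0606 to 0.114 over both genes).

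The J proteins linked to ribosomes differed by treatment. Dnajc2, the partner of Hspa14, was higher with TSA (0.24 ± 0.054, adjusted p = 0.00365) and not called with butyrate (−0.13 ± 0.054, adjusted p = 0.0545), with a direct difference of −0.37 ± 0.054. Dnajc21, which acts in making the large ribosomal subunit, rose by 0.37 ± 0.057 with TSA and was not called with butyrate (0.12 ± 0.057). Dnajc24, which serves the diphthamide modification of elongation factor 2, was higher with TSA (0.25 ± 0.087, adjusted p = 0.0353), but the call was lost without TSA replicate 2, TSA replicate 3, untreated replicate 1 or untreated replicate 2 (adjusted p 0.0697 to 0.131).

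Of 7 measured ER members 1 rose and 1 fell with TSA (14.3% each, against 26.3% and 21% of all genes). With butyrate 2 rose and 2 fell (28.6% each, against 33.6% and 24.8% of all genes). On the hybridization spike-in scale none of these members was called higher with butyrate. Dnajb11, Dnajb9, Dnajc10, Hsp90b1 and Hspa5 were called lower on it, as were 8417 of all 12393 genes. Hspa5 (BiP), the ER Hsp70 and a standard gauge of ER stress, measured 11.86, 11.90 and 11.88 in butyrate samples, 11.62, 11.62 and 11.63 in TSA samples and 11.84, 11.79 and 11.77 in untreated samples. The TSA arrays lay below all others. Hspa5 was lower with TSA (−0.18 ± 0.043, adjusted p = 0.00603), with both probe sets called, and lost this call on both spike-in scales. It was not called with butyrate (0.08 ± 0.043, adjusted p = 0.146; −0.34 and called lower on the hybridization spike-in scale), and it was 0.26 ± 0.043 higher with butyrate than with TSA (adjusted p = 0.00145; −0.15 and not called on that scale). Hsp90b1 (Grp94), the ER Hsp90 that folds Toll-like receptors and integrins, was not called with butyrate (0.11 ± 0.052) or with TSA (0.02 ± 0.052).

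The ER J proteins went separate ways. Dnajb9 (ERdj4), which sends misfolded proteins to degradation, measured 8.56, 8.51 and 8.81 in butyrate samples, 9.12, 9.12 and 9.27 in TSA samples and 9.26, 9.32 and 9.34 in untreated samples. It was lower with butyrate (−0.68 ± 0.079, adjusted p = 3.27e-05) and not called with TSA (−0.14 ± 0.079, adjusted p = 0.193). Dnajb11 (ERdj3), a BiP partner, was lower with butyrate by −0.26 ± 0.064 and not called with TSA (0.13 ± 0.064). Dnajc1 rose by 0.45 ± 0.055 with butyrate (0.03 on the hybridization spike-in scale) and by 0.61 ± 0.055 with TSA. Dnajc3 (p58IPK), an inhibitor of the kinase PERK in mice, measured 9.39, 9.74 and 9.54 in butyrate samples, 9.39, 9.31 and 9.04 in TSA samples and 9.21, 9.13 and 8.58 in untreated samples, a wide spread. It rose with butyrate by 0.59 ± 0.162 (adjusted p = 0.0104; at 0.17 on the hybridization spike-in scale) and was not called with TSA (0.28 ± 0.162). Of its 4 other probe sets, 3 were called higher with both treatments.

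The ER stress element was searched for as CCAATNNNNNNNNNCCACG on both strands; it contains a CCAAT box. It was found in the promoters of Hspa5, Hsp90b1 and Dnajc3 (3.57% of member promoters, 0.119% of all and 0.143% of those of genes on the array). They are shown with the element in capitals because these genes share it and yet did not move together: the 150 bases before the Hspa5 start (chr2:34771940-34772089, plus strand), the 230 bases before the Hsp90b1 start (chr10:86705445-86705674, minus strand), which hold a pair of elements, and the 150 bases before the Dnajc3 start (chr14:118937782-118937931, plus strand), from RefSeq on GRCm38.p6.
Hspa5: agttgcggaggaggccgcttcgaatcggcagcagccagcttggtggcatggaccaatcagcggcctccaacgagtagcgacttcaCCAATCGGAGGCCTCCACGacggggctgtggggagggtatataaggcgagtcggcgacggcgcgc
Hsp90b1: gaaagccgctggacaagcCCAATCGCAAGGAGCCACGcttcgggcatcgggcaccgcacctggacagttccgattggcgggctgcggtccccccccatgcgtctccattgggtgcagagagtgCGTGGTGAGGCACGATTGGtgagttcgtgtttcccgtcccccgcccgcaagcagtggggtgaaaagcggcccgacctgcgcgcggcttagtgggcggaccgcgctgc
Dnajc3: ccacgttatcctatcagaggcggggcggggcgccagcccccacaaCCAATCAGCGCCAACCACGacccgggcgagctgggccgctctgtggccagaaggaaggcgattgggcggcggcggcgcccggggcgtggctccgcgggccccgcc
Hspa8, Cct4, Hsp90aa1, St13, Hspa9, Dnajc11, Dnajc5, Dnajc30, Dnajc12, Hspb2, Dnajc5b, Dnajc2, Bag4 and Dnajc18 were not part of the promoter search.

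The Bag proteins, which release clients from Hsp70, were all called with TSA: 4 rose and 2 fell (66.7% and 33.3%, against 26.3% and 21% of all genes). Bag2, which restrains the ubiquitin ligase CHIP, rose by 0.58 ± 0.088 with butyrate (0.17 on the hybridization spike-in scale) and by 0.83 ± 0.088 with TSA. Bag4 rose by 0.61 ± 0.101, Bag1 by 0.32 ± 0.045 and Bag5 by 0.31 ± 0.068 with TSA, and none of these 3 was called with butyrate (0.21 ± 0.101, 0.07 ± 0.045 and 0.14 ± 0.068), although the second Bag4 probe set was called higher with butyrate (0.33). Bag3, a heat shock target that steers clients to autophagy together with Hspb8, measured 7.99, 7.74 and 7.87 in butyrate samples, 8.19, 8.25 and 8.23 in TSA samples and 8.67, 8.80 and 8.86 in untreated samples. The groups did not overlap, and Bag3 was lower with butyrate (−0.91 ± 0.072, adjusted p = 1.71e-06, 1.88-fold) and with TSA (−0.55 ± 0.072, adjusted p = 8.4e-05). Bag6, which guards membrane proteins on their way to the ER, was lower by −0.27 ± 0.072 with butyrate and −0.21 ± 0.072 with TSA. Its TSA call was lost without any 1 TSA array or without untreated replicate 2 or untreated replicate 3 (adjusted p 0.0522 to 0.107).

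Small heat shock proteins, which hold unfolded proteins without ATP, were mostly dim. Hspb1 (Hsp27) rose with TSA (0.40 ± 0.076, adjusted p = 0.00139) and was not called with butyrate (0.07 ± 0.076). On the hybridization spike-in scale the butyrate value was −0.34 and called lower. The second Hspb1 probe set was called higher with TSA (0.33) and lower with butyrate (−0.32), so the butyrate result depends on the probe set. Hspb7, near the floor, was higher with butyrate by its brightest probe set (0.46 ± 0.098, adjusted p = 0.00239). The value was 0.04 on that scale. Its 2 dimmer probe sets were not called with butyrate (0.16 and 0.21). Hspb2 was called higher with butyrate (0.26 ± 0.092, adjusted p = 0.0357; −0.16 on that scale), although its arrays overlapped with the untreated ones and the call was lost without butyrate replicate 2, butyrate replicate 3, untreated replicate 1 or untreated replicate 2 (adjusted p 0.077 to 0.13). Hspb11, which is not a chaperone, rose by 0.37 ± 0.054 with butyrate (−0.05 on that scale) and by 0.45 ± 0.054 with TSA. Hspb3 and Hspb8 were not called in any comparison, although a second Hspb8 probe set was called higher with butyrate (0.28). Hsf2, the one heat shock factor measured, rose with TSA (0.31 ± 0.078, adjusted p = 0.00673) and was not called with butyrate (−0.04 ± 0.078).

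The largest of the 40 differences in which butyrate was below TSA were those of Hsph1, Hspa9, Hspa4l, St13, Cct6a, Cct3 and Dnajb9, from −1.24 to −0.55. Of these 40 genes, 11 had risen in both treatments, 16 in TSA alone, and 6 had fallen in butyrate alone. The 4 genes above TSA were Dnajb3, Hspa5, Dnajc14 and Dnajb2, by 0.18 to 0.28, and on the hybridization spike-in scale all 4 values turned negative. Without butyrate replicate 1 the count was 2. The call of Dnajb2 was lost without butyrate replicate 1, butyrate replicate 3, TSA replicate 2 or TSA replicate 3, and that of Dnajc14 without butyrate replicate 1, butyrate replicate 3, TSA replicate 1 or TSA replicate 2 (adjusted p 0.055 to 0.116 over both genes). Among the lower genes the calls of Dnaja2, Dnajb6, Dnajc9, Dnajc1 and Dnajc10 were also lost without single arrays (adjusted p 0.0504 to 0.134): for Dnajc9 butyrate replicate 2 or TSA replicate 2, for Dnajc10 butyrate replicate 1 or any TSA array, for Dnajb6 any butyrate array, TSA replicate 1 or TSA replicate 2, for Dnajc1 those 5 arrays or untreated replicate 2, and for Dnaja2 any array but butyrate replicate 3 and untreated replicate 1.

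**Figure D4:**
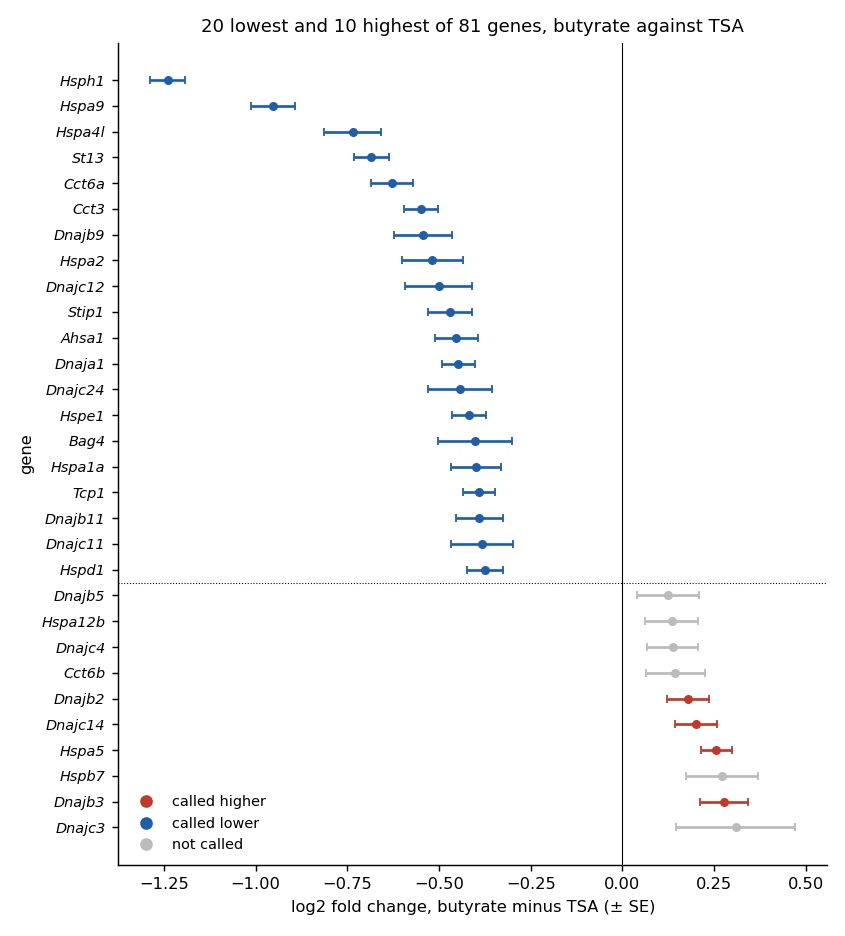
Log2 fold change ± SE for butyrate minus TSA (x axis) of the 20 lowest and 10 highest of the 81 genes (y axis; the dotted line parts them), 3 arrays per group. The values run from −1.24 (Hsph1) to 0.31 (Dnajc3, not called), and the 4 called above 0 turn negative on the hybridization spike-in scale.

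Genes usually taken as targets of HSF1 rose with TSA more often than not. Of 15 measured, all but Chordc1 and Fkbp4 were members of the families above. With TSA 11 rose (73.3%, against 26.3% of all genes) and 1, Bag3, fell (6.67%, against 21%). The 3 not called with TSA were Chordc1, Dnaja1 and Dnajb1. The median was 0.40 against 0.03 for all genes. These targets were not set beside genes of like level. With butyrate 6 rose (40%, against 33.6% of all genes) and 4 fell (26.7%, against 24.8%). The falls were Bag3, Chordc1, Dnaja1 and Hsph1, and the median was 0.02 against 0.09 for all genes. Of those 6 rises, Hspa1b is called on the hybridization spike-in scale, Hsp90aa1 and Hspe1 are above 0 and not called, and Hspa1a and Hspa8 turn negative, while the rise of Fkbp4, 0.66, is larger than the lowering of 0.415. Directly, 12 of 15 were lower with butyrate than with TSA (80%, against 20% of all genes) and 0 higher by limma (15.9% of all genes). The other 3 were Dnajb1, Hsp90aa1 and Hspa8, with adjusted p of 0.271, 0.609 and 0.744. The median was −0.40.

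A wider list of 39 measured chaperones and folding enzymes outside the rule gives the surroundings. With TSA 19 rose (48.7%, against 26.3% of all genes) and 6 fell (15.4%, against 21%), with a median of 0.16 against 0.03 for all genes. This list was not set beside genes of like level. With butyrate 21 rose (53.8%, against 33.6%) and 11 fell (28.2%, against 24.8%), with a median of 0.18 against 0.09, before the lowering of 0.415 by the hybridization spike-ins. Directly, 13 were lower with butyrate and 3 higher (Fkbp5, Sgta and Unc45a, all below 0 after the lowering on that scale), with a median of −0.06 against 0.03. Among ER folding enzymes and chaperones of this list, picked after their values were seen, P4hb rose by 0.53 ± 0.047 with butyrate and by 0.50 ± 0.047 with TSA. Hyou1, Pdia4, Pdia6 and Sdf2l1 rose by 0.23 to 0.30 with butyrate and by 0.16 to 0.28 with TSA. Of these 5, only P4hb exceeds the lowering of 0.415 with butyrate. Calr and Pdia3 were called with neither, and Canx was lower with butyrate (−0.20 ± 0.047). Fkbp4, an immunophilin that works with Hsp90 on steroid receptors, rose by 0.66 ± 0.060 with butyrate and by 1.19 ± 0.060 with TSA. Its relative Fkbp5 rose by 1.04 ± 0.054 with butyrate and by 0.80 ± 0.054 with TSA, and the direct difference was 0.25 ± 0.054 (below 0 on the hybridization spike-in scale, which lowers differences between butyrate and TSA by 0.401). Trap1, the mitochondrial Hsp90, rose by 0.34 ± 0.051 with butyrate (below 0 after the lowering of 0.415) and by 0.84 ± 0.051 with TSA. Pfdn6, a subunit of prefoldin that feeds CCT, rose by 0.62 ± 0.045 with butyrate and by 0.84 ± 0.045 with TSA. Tbce, a tubulin folding cofactor acting after CCT, was lower with butyrate (−0.87 ± 0.045) and with TSA (−0.92 ± 0.045), and Tbcb, another, by −0.80 ± 0.053 with butyrate and −0.39 ± 0.053 with TSA. Clpb, a mitochondrial disaggregase measured at low levels, was lower by −0.82 ± 0.090 with butyrate and −0.56 ± 0.090 with TSA. Chordc1, an Hsp90 co-chaperone, was lower with butyrate (−0.60 ± 0.057) and not called with TSA (0.08 ± 0.057). Nudc, which works with Hsp90, rose by 0.66 ± 0.061 with TSA and was called higher with butyrate by 0.16 ± 0.061 (adjusted p = 0.0472; below 0 after the lowering of 0.415).

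The 18 members not called in any of the 3 comparisons were Cct6b, Hsp90b1, Hspa12b, Hspa1l, Hspb3, Hspb8 and 12 J proteins (Dnaja4, Dnajb1, Dnajb4, Dnajb5, Dnajb7, Dnajb8, Dnajc4, Dnajc5, Dnajc5b, Dnajc13, Dnajc18 and Dnajc27). Of the 81 members 45 had more than 1 probe set. Within a member, probe sets were called in opposite directions with TSA for Dnajb6 and Hspa8, with butyrate for Dnaja4 and Dnajb6, and between the treatments for none. Every probe set was called in 1 direction for 15 members with TSA, 12 with butyrate and 10 between the treatments. Hsph1, Hspa1b and Hspe1 were alike over all their probe sets, whereas Hspa9 and St13 rested on their brighter ones.

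**Figure D5:**
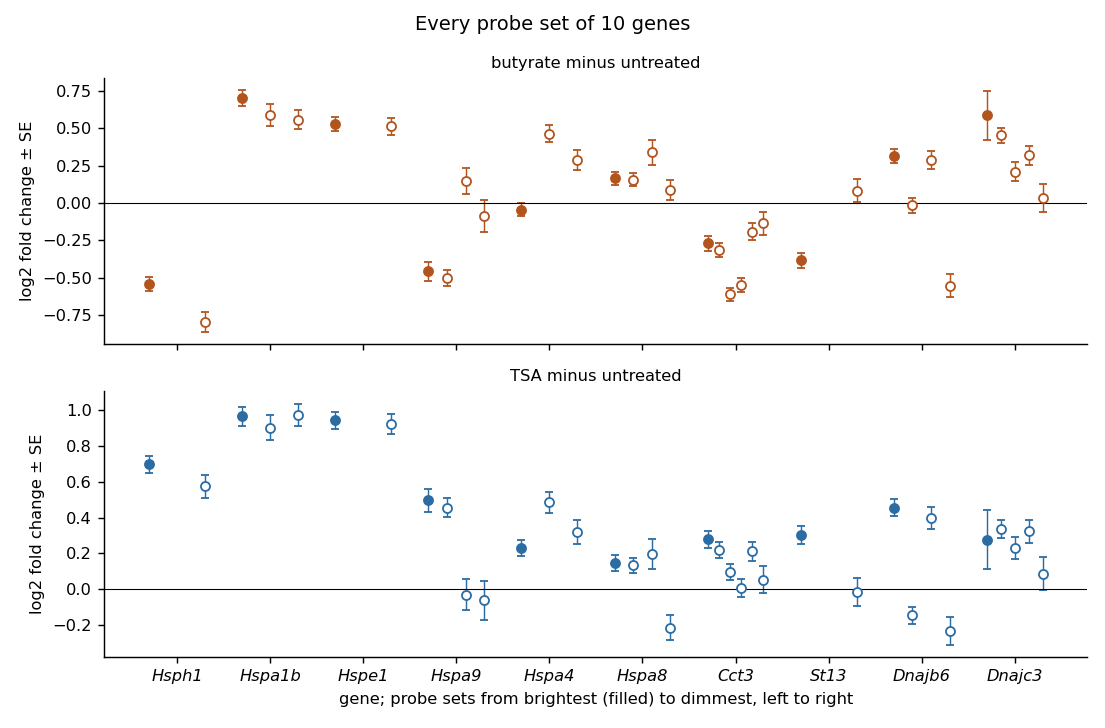
Log2 fold change ± SE (y axis) of every probe set of 10 genes (x axis), from the brightest (filled) to the dimmest, for butyrate minus untreated and TSA minus untreated. Hsph1 lies below 0 with butyrate and above 0 with TSA in both probe sets, Hspa1b and Hspe1 lie above 0 throughout (above 0 also on the hybridization spike-in scale for the brightest), and Dnajb6 lies on both sides of 0.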

How the data were processed

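Gene expression was measured on 9 one-colour Affymetrix arrays of biotin-labelled total RNA. The values the authors deposited are log2 levels, and the submitters' processing notes name RMA as the method. Which software ran it, in which version and with which probe set definition, is not given in the sources used here. RMA corrects background, normalizes quantiles and summarises probes by median polish, so a shift of all genes on an array is removed. Values ran from 3.03 to 15.19, and the array medians from 6.70 to 6.75. The number of arrays limits the precision. Of 22690 probe sets, 20380 had 1 symbol in the platform annotation, 691 had several, 1555 had none here and 64 were controls. The 12393 genes with 1 symbol were each represented by the probe set of highest mean; 2 probe sets naming a further J protein among several symbols were left out. In R 4.3.3, a mean per group was fitted by lmFit of limma 3.58.1 and moderated by eBayes (6 residual and 3.9 prior degrees of freedom). P-values were adjusted over the 12393 genes, and those of single probe sets over all probe sets other than the 64 controls. The code was tested on simulated data. Spike-in levels were compared with exact permutation tests.

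The members, lists and tests were chosen with earlier results of these data known. The named genes are the 10 largest rises and falls per comparison among called members whose arrays did not overlap, up to 4 called members of each family, a set of core chaperones whatever their value, and up to 4 called genes of each list outside the rule. This rule names 61 members; Dnajc8, Dnajc10, Dnajc15, Dnajc21, Dnajc30 and the members not called in any comparison were added after their values were seen, as were the ER genes named outside the rule. Deviations of samples with the same replicate number had correlations from −0.12 to 0.21, and those with different numbers from −0.246 to 0.157. With 3 arrays per group this cannot tell whether samples were paired, and the main fit did not pair them. Alternatives covered normalization, the spike-in scales (hybridization spike-ins other than Cre, and poly-A spike-ins), low levels, the probe set per gene, the variance model, the arrays fitted, a replicate block and each array left out. Promoters of 300 bases (250 before the start site to 50 after) came from RefSeq on GRCm38.p6, and a member's gene was matched by its gene identifier.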

Additional observations from a re-analysis of the deposited data

How the results depend on the processing

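The counts of called members moved by over 1.5 times under the spike-in scales and with single arrays left out. On the hybridization spike-in scale 4 members were lower with TSA, 3 higher and 60 lower with butyrate, and 0 higher and 76 lower with butyrate than with TSA. On the poly-A spike-in scale 17 were higher and 3 lower with TSA, 2 were higher with butyrate, and 0 were higher with butyrate than with TSA. Both scales subtract 1 number per array from every gene, and the spread of the spike-ins enters each gene. Over all genes, the hybridization scale gave 932 higher and 8417 lower with butyrate, and 93 higher and 10047 lower against TSA; the poly-A scale gave 1180 and 1349 with TSA, 548 and 3581 with butyrate, and 19 and 2782 against TSA. Leaving out 1 array gave 39 to 42 higher and 5 to 9 lower with TSA, 20 to 24 higher and 16 to 19 lower with butyrate, and 2 to 4 higher and 35 to 40 lower against TSA. With the replicate block, 42 were higher and 9 lower with TSA, 23 and 17 with butyrate, and 4 and 38 against TSA. The labels give a replicate number and do not say whether it pairs the samples.

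Some log2 differences changed sign. On the hybridization spike-in scale the butyrate minus untreated values became −0.35 for Bag1, −0.275 for Bag5, −0.141 for Cct2, −0.336 for Cct4, −0.246 for Cct6b, −0.293 for Cct7, −0.152 for Dnaja3, −0.267 for Dnajb3, −0.105 for Dnajb6, −0.088 for Dnajc15, −0.287 for Dnajc14, −0.291 for Dnajc21, −0.206 for Bag4, −0.305 for Hsp90b1, −0.215 for Hspa1a, −0.337 for Hspa5, −0.25 for Hspa8, −0.341 for Hspb1, −0.046 for Hspb11, −0.16 for Hspb2 and −0.394 for Hspd1. Butyrate minus TSA became −0.256 for Cct6b, −0.343 for Dnajb13, −0.221 for Dnajb2, −0.124 for Dnajb3, −0.201 for Dnajc14, −0.308 for Dnajc17, −0.37 for Dnajc7, −0.363 for Hsp90aa1, −0.314 for Hsp90b1, −0.145 for Hspa5, −0.381 for Hspa8 and −0.332 for Hspb2. On the poly-A spike-in scale butyrate minus untreated became −0.081 for Cct2, −0.233 for Cct7, −0.092 for Dnaja3, −0.044 for Dnajb6, −0.155 for Hspa1a, −0.19 for Hspa8 and −0.1 for Hspb2, and butyrate minus TSA −0.149 for Dnajb2, −0.052 for Dnajb3, −0.128 for Dnajc14 and −0.072 for Hspa5. With the second brightest probe set, TSA minus untreated became 0.162 for Dnaja1, −0.163 for Dnajb1, −0.148 for Dnajb6, −0.097 for Dnajc28, −0.012 for Hspb11 and −0.017 for St13. Butyrate minus untreated became −0.059 for Dnaja3, −0.015 for Dnajb6, 0.462 for Hspa4 (0.235 with the mean of all probe sets), −0.318 for Hspb1 and 0.081 for St13, and butyrate minus TSA 0.133 for Dnajb6, 0.086 for Dnajc1 and 0.099 for St13. Apart from the construction of the scales, the cause was not tested.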
